A study of Mus musculus with 12 samples.

Results

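The genes followed here are 10 of the 37991 in the expression table of mouse bone marrow natural killer (NK) cells. They encode NKp46 (Ncr1), other activating or nectin- and SLAM-family receptors (Cd226, Cd96, Tigit, Slamf6, Slamf7 and Fcgr3) and the adaptors that carry receptor signals into the cell (Fcer1g, Tyrobp and Hcst). They were taken as a named list, matched by Ensembl gene ID. All 10 were found and all 10 passed the filter on low values.

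RNA sequencing covered 12 libraries, 3 for each of 4 genotypes, of bone marrow cells of C57Bl/6 mice that were sorted as NK1.1+ CD49b+. The Id2KO mice were Ncr1Cre Id2F/F, the Tcf1KO mice Ncr1Cre Tcf7F/F and the DKO mice Ncr1Cre Id2F/F Tcf7F/F. The Ctrl mice carried floxed alleles without Cre: the treatment label gives Id2F/F, and the series title gives Id2F/F or Id2F/FTcf7F/F. Cre was driven from Ncr1, which is itself one of the genes described, and every deleted group carried it while Ctrl did not, so the Cre allele and the deletions cannot be told apart in comparisons with Ctrl. How the Cre allele was built into or beside Ncr1 is not given in the sources used here. The labels call the 3 samples of a genotype independent but do not say that each came from its own animal, so the p-values cover the variation among these samples alone, which may be partly technical.

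NK cells weigh signals from many germline-encoded receptors before they kill a target or release cytokines. Most activating receptors have short tails and pair with small adaptors: FcεRIγ (Fcer1g) and DAP12 (Tyrobp) carry ITAM motifs that engage Syk and Zap70, and DAP10 (Hcst) carries a motif that recruits PI3 kinase. CD226, CD96 and TIGIT share ligands of the nectin family on target cells, with CD226 activating and TIGIT inhibitory, and SLAM-family receptors bind their own kind on neighbouring blood cells. Id2 holds back E proteins, which bind E-boxes in DNA, and Tcf7 encodes TCF-1, which binds its own DNA motif.

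Because the deleted factors act through these DNA motifs, the RefSeq promoters (GRCm38.p6, 250 bases before to 50 after a gene's start) of the members were searched on both strands for the E-box CANNTG and for the TCF core, TCAAAG on one strand and CTTTGA on the other. Entries of 8 of the 10 members were used, and Cd226 and Tyrobp were not among them. E-boxes lay in 6 of these 8, and in 72.3% of all 32817 promoters of the same length. The TCF core in this form lay in 0 of 8, and in 16% of all promoters. Other forms of the motif were not searched, so this does not show that the promoters lack one. With 0 matches of that core, overlap with an E-box could not arise. Promoters are printed for the members with the largest differences among these 8, 5′ to 3′ on the gene's strand with E-boxes in capitals. The Ncr1 promoter lies at chr7:4337465-4337764 on the plus strand (the upstream of 2 listed starts). That of Tigit lies at chr16:43664135-43664434 on the minus strand, and that of Slamf6 at chr1:171917212-171917511 on the plus strand.
Ncr1: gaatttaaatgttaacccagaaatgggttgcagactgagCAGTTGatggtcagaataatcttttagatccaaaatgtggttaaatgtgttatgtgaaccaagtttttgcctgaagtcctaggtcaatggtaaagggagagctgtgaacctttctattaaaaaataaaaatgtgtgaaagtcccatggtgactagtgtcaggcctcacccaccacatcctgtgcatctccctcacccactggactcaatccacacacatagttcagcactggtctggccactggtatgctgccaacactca
Tigit: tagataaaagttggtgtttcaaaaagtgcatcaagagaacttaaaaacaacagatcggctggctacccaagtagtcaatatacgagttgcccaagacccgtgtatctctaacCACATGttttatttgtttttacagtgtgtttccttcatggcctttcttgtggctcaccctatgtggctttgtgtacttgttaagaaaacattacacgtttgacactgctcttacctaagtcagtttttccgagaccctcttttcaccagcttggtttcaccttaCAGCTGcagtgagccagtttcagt
Slamf6: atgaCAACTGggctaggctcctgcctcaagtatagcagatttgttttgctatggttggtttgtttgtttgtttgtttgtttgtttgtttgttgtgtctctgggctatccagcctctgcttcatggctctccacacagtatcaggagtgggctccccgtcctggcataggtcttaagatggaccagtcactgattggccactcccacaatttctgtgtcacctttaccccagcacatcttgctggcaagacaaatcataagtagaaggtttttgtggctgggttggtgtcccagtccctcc
Ncr1 held 1 E-box, 211 bases before its start, Slamf6 held 1, 246 bases before its start, and Tigit held 2, one 138 bases before and one 27 bases after its start. A match is a stretch of letters and not a measured binding site.

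Gene totals of recovered reads lay between 13975523 and 20208160 per library. Levels are given in FPKM, which divides fragments by gene length and by sequencing depth. This unit allows levels of different genes to be compared per length. Differences are of log2(FPKM + 1), each ± its standard error (SE), tested with limma over all 12384 genes that reached 1 FPKM in 3 or more libraries, and a gene was called at an adjusted p (Benjamini-Hochberg) under 0.05. The targeted genes were checked first. Id2 stood at 17.8, 17.1 and 19.2 FPKM in Id2KO and 48.8, 41.2 and 36.8 in DKO, against 124, 163 and 170.0 in Ctrl, and was called lower in both (adjusted p = 1.52e-05 and 0.00269). It was also called higher in DKO than in Id2KO, without overlap (log2 difference 1.18 ± 0.16, limma adjusted p = 0.0205). DKO against Id2KO thus compares groups that differ in Id2 level too. Tcf7 stood at 29.6, 37.3 and 38.0 FPKM in the libraries labelled Tcf1KO, against 37.7, 38.6 and 46.5 in Ctrl, and the groups overlapped (log2 difference -0.22, adjusted p = 0.999). In the libraries labelled DKO it stood at 53.9, 60.04 and 73.3 FPKM, above every Ctrl library (log2 difference 0.59 ± 0.16, adjusted p = 0.226) and below every Id2KO library (-0.45 ± 0.16, adjusted p = 0.328). The whole-gene Tcf7 level thus goes against the label DKO when set against Ctrl, but not when set against Id2KO. It does not separate the libraries labelled Tcf1KO from Ctrl. A value per gene pools all exons, so it cannot show whether part of the gene was removed, and that was not tested. Tcf1KO, DKO and Tcf7 targeting are used below as labels, and every direction given for them rests on those labels.

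Markers of cell types that the sort could hold also differed in level between the genotypes. The summed level of 8 T cell markers was 345 to 680 FPKM in Id2KO, 789 to 1057 in Tcf1KO, 950 to 1076 in DKO and 351 to 414 in Ctrl. The summed level of 6 NK cell markers was 271 to 378 FPKM in Id2KO, 300.4 to 315 in Tcf1KO, 244 to 334 in DKO and 382 to 399 in Ctrl. For Tcf7 targeting 8 of 8 T cell markers had a positive log2 difference and 2 were called higher (Cd3e by 1.55, adjusted p = 0.0162, and Trac by 1.23, adjusted p = 0.0255), while 1 of 6 NK cell markers was called lower (Eomes by -0.69, adjusted p = 0.0454). Of all tested genes 0.371% were called for Tcf7 targeting. No T cell or NK cell marker was at 0 in any library. The sum of 10 myeloid and neutrophil markers was 59.5 to 1019 FPKM in Id2KO, 1159 to 4086 in Tcf1KO, 307 to 766 in DKO and 864 to 3523 in Ctrl, and Elane among them was at 0 in all Id2KO libraries. For Id2 targeting 0 of these 10 had a positive difference, with a median of -2.85 on the log2 scale and 0 called (0.299% of all genes). The sum of 6 ILC1 markers, genes of a related Ncr1-expressing cell, was 31.4 to 45.8 FPKM in Id2KO, 64.4 to 89.7 in Tcf1KO, 69.3 to 85.1 in DKO and 40.7 to 63.6 in Ctrl. For Tcf7 targeting 5 of these 6 had a positive difference (median 0.95 on the log2 scale) and 2 were called higher, Itga1 (CD49a) by 1.57 (adjusted p = 0.00452) and Tnfsf10 (TRAIL) by 1.05 (adjusted p = 0.0370). In DKO against Id2KO, where 0.121% of all genes were called, 6 of 6 were positive and Itga1 was called higher, by 1.99 (adjusted p = 0.00690). With a T cell marker score as a term, chosen after seeing the data, none of these 3 calls held (adjusted p = 0.593, 0.879 and 0.300). The differences of Itga1 were then 1.64 for Tcf7 targeting and 2.04 in DKO against Id2KO. That of Tnfsf10 for Tcf7 targeting was 0.28. With this score as a term, 0 of all 12384 tested genes were called for Tcf7 targeting, in DKO against Ctrl or in DKO against Id2KO. A call lost with it, here and below, therefore does not single out a gene. In bulk RNA, fewer cells of a type and less RNA per cell cannot be told apart, and the part of these markers in the results below was not tested except where a fit with them is given.

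**Figure D1:**
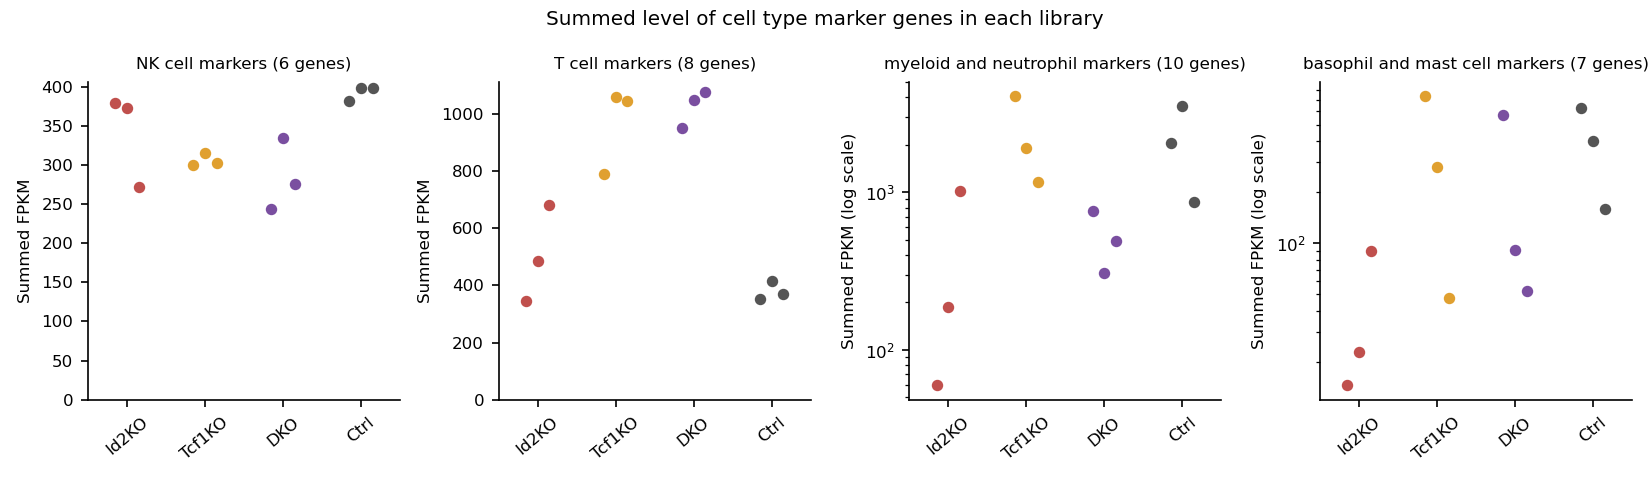
Summed FPKM of marker genes of 4 cell types (y axis, log scale for the myeloid and basophil panels) in each library, by group on the x axis; each point is 1 library. The T cell sum was 789 or more in every Tcf1KO and DKO library and 680 or less in every Id2KO and Ctrl library.

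In Ctrl the adaptor genes Tyrobp and Fcer1g were the most abundant of the 10. Tyrobp averaged 1267 ± 198 FPKM and Fcer1g 824 ± 78.4 (SD, n = 3), ahead of Ncr1 at 192 ± 20.8 and Hcst at 77.2 ± 22.1. The nectin-binding receptors Cd96 and Tigit followed at 46.6 ± 16.3 and 42.5 ± 4.02 FPKM, whose ranges overlapped, with Slamf7 at 34.0 ± 10.2, Cd226 at 19.5 ± 1.91, Slamf6 at 10.7 ± 2.64 and Fcgr3 at 8.04 ± 2.50. Neighbours in this order did not overlap for Tyrobp and Fcer1g, Fcer1g and Ncr1, Ncr1 and Hcst, Slamf7 and Cd226, and Cd226 and Slamf6; the other neighbours overlapped.

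**Figure D2:**
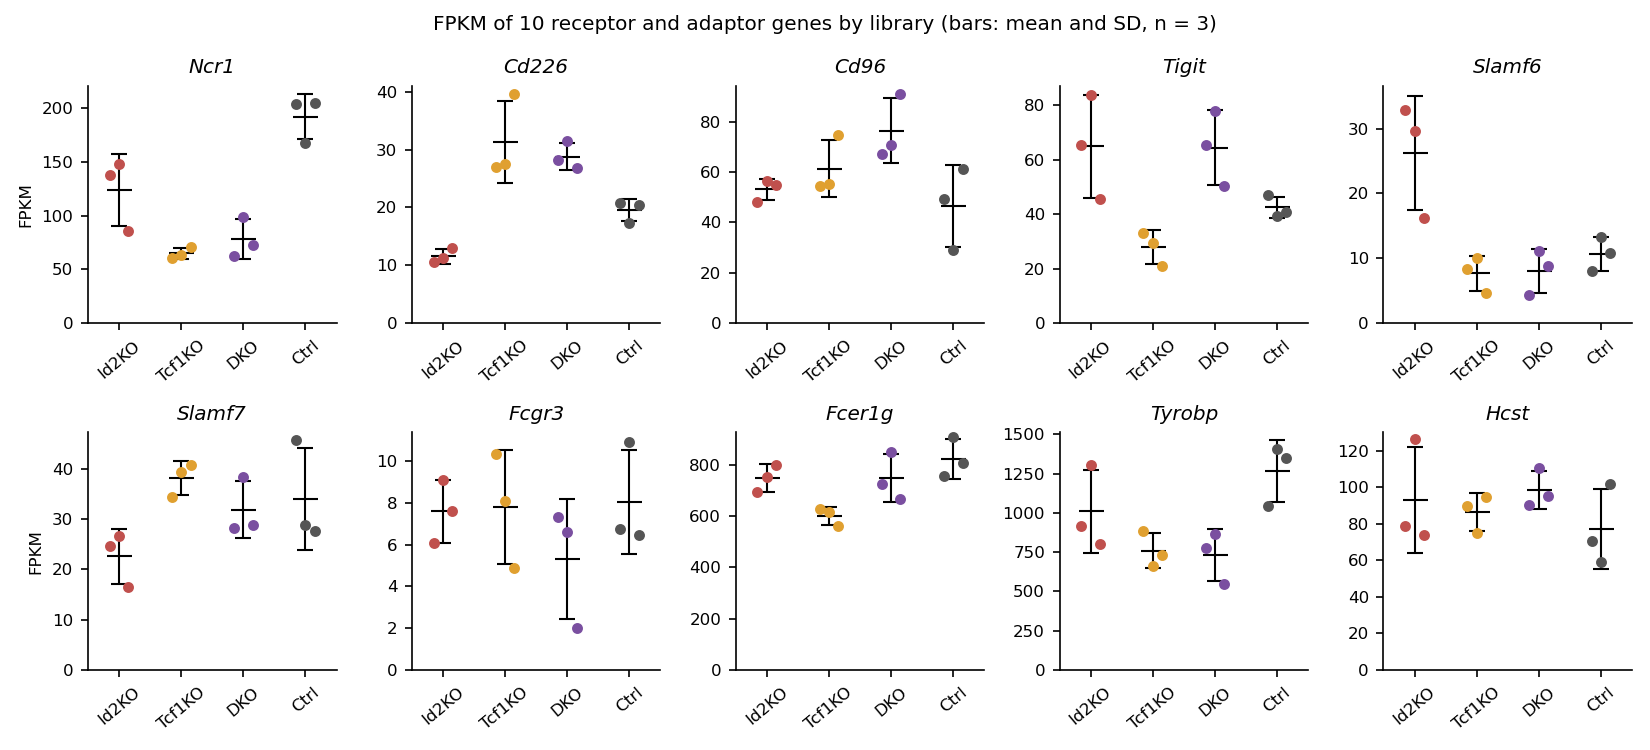
FPKM (y axis, linear, from 0) of each of the 10 genes in every library, by group on the x axis; points are libraries and bars give the mean and SD of 3. Every Ctrl library had more Ncr1 than any library with Cre, and Cd226 separated the 6 Tcf1KO and DKO libraries from the 6 Id2KO and Ctrl libraries.

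Ncr1 (ENSMUSG00000062524, GRCm38 chromosome 7, 4337724 to 4345164, plus strand) encodes NKp46, the natural cytotoxicity receptor that marks NK cells and innate lymphoid cells and signals through FcεRIγ and CD3ζ. Its level was 138, 148 and 85.8 FPKM in Id2KO, 60.3, 63.7 and 70.4 in Tcf1KO libraries and 62.4, 99.1 and 72.9 in DKO, against 203, 168 and 204 in Ctrl. All 9 libraries with Cre lay below all 3 Ctrl libraries, the libraries labelled Tcf1KO were the lowest group on average, and Id2KO replicate 3 lay among the DKO values. That library also had the lowest NK marker sum of its group (271 FPKM) and the highest T marker sum (680 FPKM).

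Averaged over both Tcf7-targeted groups, Tcf1KO and DKO, against Id2KO and Ctrl, Ncr1 fell by 1.10 ± 0.16 on the log2 scale (SE, limma adjusted p = 0.0208), although 1 DKO library stood above 1 Id2KO library. Tcf1KO against Ctrl gave its largest pairwise difference, -1.55 ± 0.22, with the smallest unadjusted p among the 12384 genes of that comparison, but not a call after adjustment (adjusted p = 0.143). DKO against Ctrl gave -1.30 ± 0.22 (adjusted p = 0.0567) and Id2KO against Ctrl -0.66 ± 0.22 (adjusted p = 0.346). All Cre-carrying groups against Ctrl gave -1.17 ± 0.18 (adjusted p = 0.0558). Between groups that both carry Cre, DKO against Id2KO gave -0.65 ± 0.22 (adjusted p = 0.311) and DKO against Tcf1KO 0.24 ± 0.22 (95% interval -0.25 to 0.73, adjusted p = 0.903). The interaction, the DKO to Tcf1KO difference minus the Id2KO to Ctrl difference, was 0.90 ± 0.31 (adjusted p = 0.831).

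The calls on Ncr1 sat close to the threshold and moved with the fit. With the T cell marker score as a term the Tcf7-targeted difference was -0.51 with adjusted p = 0.770, and the differences were -0.85 in Tcf1KO against Ctrl, -0.61 in DKO against Ctrl and -0.18 in DKO against Id2KO (adjusted p = 0.757, 0.753 and 0.911). Without Id2KO replicate 3 the Id2KO to Ctrl difference was -0.42 (adjusted p = 0.492). The summed T cell markers did not overlap between the same 2 sets of 6 libraries. Leaving out any 1 of 9 libraries (Ctrl replicates 1 and 3, Id2KO 1 and 2, Tcf1KO 1 to 3, DKO 1 and 3) ended the call with adjusted p of 0.0509 to 0.0689 at differences of -1.13 to -1.02, while voom on the recovered reads called Ncr1 lower in Tcf1KO (adjusted p = 0.0224), DKO (adjusted p = 0.0219) and all Cre groups (adjusted p = 0.00468) against Ctrl.

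Ncr1 was also set against the summed NK markers of its own library (Klrb1c, Itga2, Klrd1, Klrk1, Eomes and Tbx21). This sum was 378 FPKM or less in every library with Cre and 382 or more in Ctrl. Dividing by it thus raises the libraries with Cre relative to Ctrl, here and below. Eomes, part of the sum, was itself called lower with Tcf7 targeting. The quotient was 0.364, 0.398 and 0.316 for Id2KO libraries, 0.201, 0.202 and 0.233 for Tcf1KO libraries, and 0.256, 0.296 and 0.264 for DKO libraries, against 0.532, 0.421 and 0.513 for Ctrl libraries. Taken this way the 4 groups did not overlap for Ncr1, in the order Tcf1KO, DKO, Id2KO and Ctrl from low to high, and Id2KO replicate 3 joined its own group. The share of all genes without overlap on this scale was not computed. Separations on it, here and below, are therefore not shown to be particular to the members.

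Genes near Ncr1 and genes with a like pattern were compared with it. Within 200 kb of its start, Leng9, Rdh13 and Ppp1r12c passed the filter, and over the Cre groups against Ctrl they differed by 0.10, -0.19 and -0.05 on the log2 scale (adjusted p = 0.975, 0.924 and 0.978). Pearson correlations with Ncr1 in log2(FPKM + 1) were ranked over the 12 libraries for 10022 tested genes. Genes with Gm-number or Rik names, or with an ID alone, were passed over. The highest were those of Adamts14, a secreted protease (r = 0.96), Eomes, a transcription factor of NK cells (0.93), Klra4, the activating receptor Ly49D (0.91), the pseudogene Klra13-ps (0.90) and Cops7b, a COP9 signalosome subunit (0.90). The most opposite were the T cell receptor segments Trgv2 (-0.88), Trac (-0.87) and Traj23 (-0.87), with the cadherin Celsr1 (-0.87) and Apobec2 (-0.86). These libraries share their 4 groups, so the values follow the group differences, and reads of Ly49 genes can be split between near-identical copies.

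Cd226 (ENSMUSG00000034028, chromosome 18, 89176967 to 89272229, plus strand) encodes DNAM-1, an activating receptor for Pvr and nectin-2. Its level was 10.5, 11.2 and 12.9 FPKM in Id2KO, 27.0, 27.4 and 39.5 in Tcf1KO libraries and 28.2, 31.4 and 26.8 in DKO, against 20.8, 17.3 and 20.5 in Ctrl. Id2KO lay wholly below Ctrl, and both Tcf7-targeted groups lay wholly above it and overlapped each other. When divided by the summed NK markers of each library, Id2KO (0.0278, 0.0301 and 0.0476) overlapped Ctrl (0.0543, 0.0434 and 0.0514). Both Tcf7-targeted groups still lay above Ctrl on that scale.

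Cd226 rose in DKO against Id2KO by 1.25 ± 0.17 on the log2 scale (SE, limma adjusted p = 0.0205), the one call on the 10 members between 2 single groups. In this comparison 1 of 10 members was called, against 0.121% of all tested genes, and 4 of 10 did not overlap between the groups, against 14.7% of all genes. Averaged over the 6 Tcf7-targeted libraries against the other 6, Cd226 rose by 0.94 ± 0.12 (adjusted p = 0.0162) with no overlap. Against Ctrl it differed by -0.71 ± 0.17 in Id2KO (adjusted p = 0.189), 0.64 ± 0.17 in Tcf1KO (adjusted p = 0.516) and 0.54 ± 0.17 in DKO (adjusted p = 0.328). DKO against Tcf1KO gave -0.10 (95% interval -0.47 to 0.27, adjusted p = 0.953). The interaction was 0.61 ± 0.24 (adjusted p = 0.831), and the Id2-targeted groups against the others gave -0.40 ± 0.12 (adjusted p = 0.238).

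The DKO to Id2KO call on Cd226 did not hold when only those 2 groups were fitted (adjusted p = 0.233), with a score of basophil, myeloid and erythroid markers as a term (adjusted p = 0.0541), with the T cell score as a term (log2 difference 1.12, adjusted p = 0.423), or without Id2KO replicate 1 or 2 or any 1 DKO library (adjusted p = 0.0706 to 0.123). The Tcf7-targeted call did not hold with the T cell score (log2 difference 0.78, adjusted p = 0.647) or without Ctrl replicate 3, Id2KO replicate 1 or Id2KO replicate 2 (adjusted p = 0.0506 to 0.0582).

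Tigit (ENSMUSG00000071552, chromosome 16, 43648867 to 43664146, minus strand) encodes the inhibitory receptor that competes with CD226 for Pvr. Its level was 65.5, 83.6 and 45.6 FPKM in Id2KO, 33.1, 29.6 and 21.2 in Tcf1KO libraries and 65.5, 77.7 and 50.2 in DKO, against 47.0, 39.4 and 40.9 in Ctrl. Both Id2-targeted groups averaged highest, with Id2KO replicate 3 inside the Ctrl range, and the libraries labelled Tcf1KO lay wholly below all others. Relative to the summed NK markers, every Id2KO and DKO library (0.168 or more) lay above every Ctrl and Tcf1KO library (0.123 or less). Tcf1KO overlapped Ctrl on that scale.

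Id2 targeting as a whole gave 0.87 ± 0.17 on the log2 scale for Tigit (SE, limma adjusted p = 0.0786). DKO against Tcf1KO gave 1.18 ± 0.24, with no overlap (adjusted p = 0.251). Against Ctrl the differences were 0.56 ± 0.24 in Id2KO (adjusted p = 0.485; 0.36 without Id2KO replicate 2), -0.61 ± 0.24 in Tcf1KO (adjusted p = 0.983) and 0.57 ± 0.24 in DKO (adjusted p = 0.506). DKO and Id2KO, which averaged 64.5 ± 13.7 and 64.9 ± 19.0 FPKM (SD, n = 3), gave 0.01 (95% interval -0.53 to 0.55). The Id2-targeted difference was called under median scaling, with array weights and without Id2KO replicate 3 (adjusted p = 0.0314 to 0.0441).

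Cd96 (ENSMUSG00000022657, chromosome 16, 46035657 to 46120251, minus strand) encodes the remaining receptor of this group, which restrains NK cells in mice. Its level was 48.2, 56.3 and 54.7 FPKM in Id2KO, 54.3, 55.2 and 74.5 in Tcf1KO libraries and 67.3, 70.9 and 91.0 in DKO, against 49.5, 29.0 and 61.3 in Ctrl. Every DKO library stood above every Id2KO and Ctrl library, while the other groups overlapped Ctrl. Relative to the summed NK markers, the Tcf1KO libraries (0.181, 0.175 and 0.247) also lay above Ctrl (0.130, 0.0728 and 0.154). That separation comes from the lower NK marker sums of Tcf1KO, since the FPKM values overlapped. DKO against Ctrl gave 0.75 ± 0.25 on the log2 scale (limma adjusted p = 0.352). Without Ctrl replicate 2, the lowest library, it was 0.45 (adjusted p = 0.582). Pvr, the common ligand, was low at 9.09, 5.76 and 10.8 FPKM in DKO, against 3.57, 2.18 and 2.82 in Ctrl, a log2 difference of 1.29 ± 0.27 without overlap (adjusted p = 0.121).

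**Figure D3:**
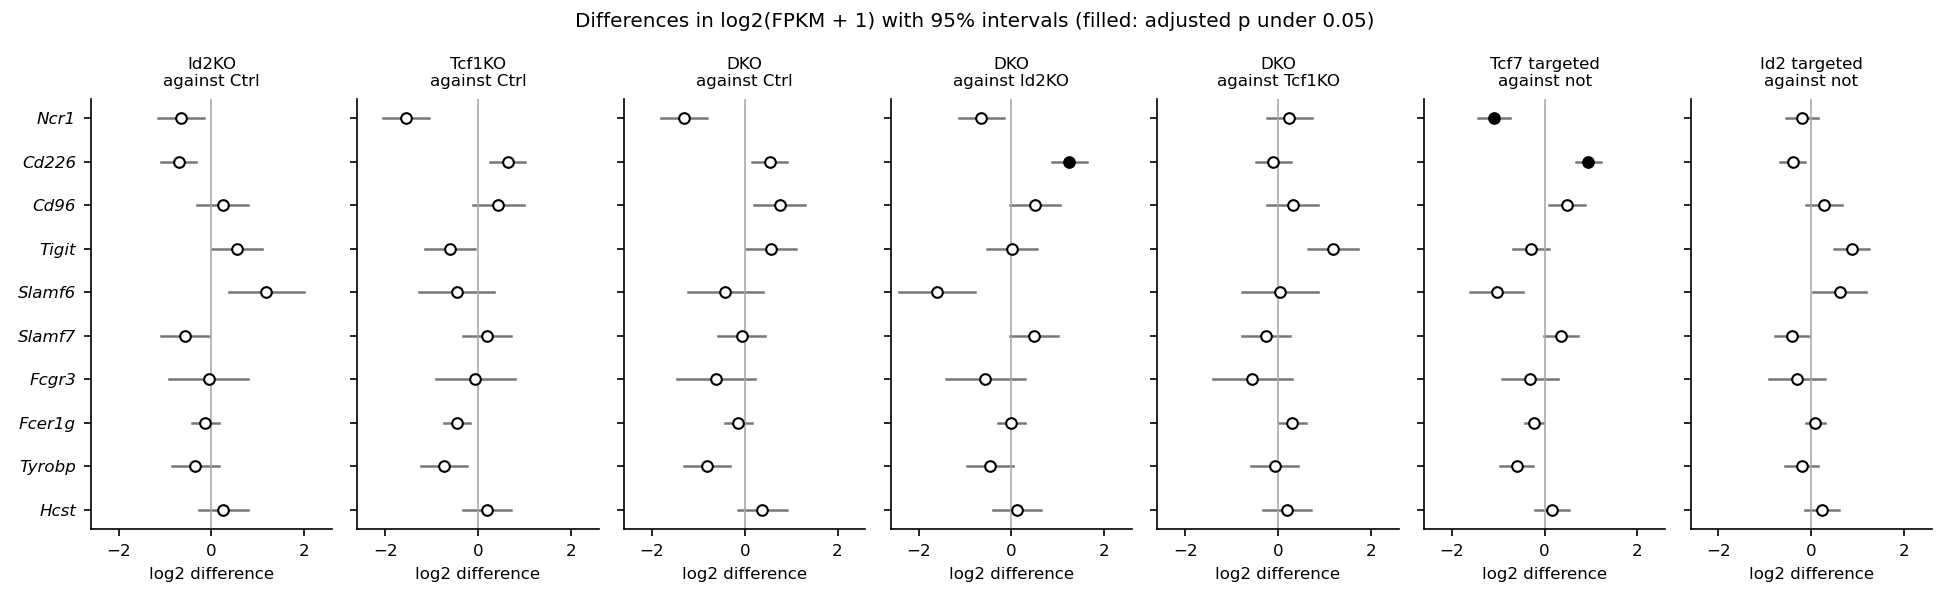
Differences in log2(FPKM + 1) (x axis) with 95% intervals for each of the 10 genes (rows) in 7 comparisons (panels); filled points have an adjusted p under 0.05. Filled points are Cd226 in DKO against Id2KO and Cd226 and Ncr1 in the Tcf7-targeted groups against the others.

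Of the SLAM receptors, Slamf6 (ENSMUSG00000015314, chromosome 1, 171917515 to 171953170, plus strand) encodes Ly108, which in T cells is used as a surface marker of TCF-1 positive cells. Its level was 32.8, 29.6 and 16.3 FPKM in Id2KO, 8.33, 10.03 and 4.70 in Tcf1KO libraries and 4.40, 11.1 and 8.83 in DKO, against 8.0, 13.3 and 10.8 in Ctrl. Id2KO alone stood apart, above every other library, and the other groups overlapped. Id2KO against Ctrl gave 1.19 ± 0.37 on the log2 scale (limma adjusted p = 0.298) and DKO against Id2KO -1.60 ± 0.37 (adjusted p = 0.152). The Tcf7-targeted groups against the others gave -1.03 ± 0.26 (adjusted p = 0.178) and the interaction -1.14 ± 0.52 (adjusted p = 0.834), so none of these was called. With the T cell score as a term the Tcf7-targeted difference was -0.55 (adjusted p = 0.873). Tcf7 itself was called higher in Id2KO than in Ctrl (log2 difference 1.04 ± 0.16, adjusted p = 0.0279), with 81.5, 92.1 and 80.9 FPKM in Id2KO, against 37.7, 38.6 and 46.5 in Ctrl. In DKO Tcf7 also stood above every Ctrl library (53.9, 60.04 and 73.3 FPKM), while Slamf6 there overlapped Ctrl. A link between the levels of these genes was not tested.

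Slamf7 (ENSMUSG00000038179, chromosome 1, 171632403 to 171653035, minus strand) encodes CRACC, a SLAM receptor that activates NK cells through EAT-2. Its level was 24.6, 26.7 and 16.4 FPKM in Id2KO, 34.3, 39.4 and 40.8 in Tcf1KO libraries and 28.2, 38.4 and 28.9 in DKO, against 45.7, 28.8 and 27.5 in Ctrl. Id2KO was below all other libraries, the reverse of Slamf6, whose gene lies 264.5 kb away. Divided by the summed NK markers of each library, Slamf7 in Id2KO (0.0649, 0.0717 and 0.0605) overlapped Ctrl (0.120, 0.0723 and 0.0691). Id2KO against Ctrl gave -0.56 ± 0.23 on the log2 scale (limma adjusted p = 0.459). Without Ctrl replicate 1, the highest library, it was -0.34 (adjusted p = 0.717), and without Id2KO replicate 3, the lowest, -0.36 (adjusted p = 0.637).

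Fcgr3 (ENSMUSG00000059498, chromosome 1, 171051174 to 171064935, minus strand) encodes CD16, the IgG receptor behind antibody-dependent killing. It had the lowest mean of the 10 over all libraries, with 6.08, 9.09 and 7.59 FPKM in Id2KO, 10.3, 8.11 and 4.90 in Tcf1KO libraries and 7.30, 6.62 and 2.02 in DKO, against 6.75, 10.9 and 6.45 in Ctrl. All groups overlapped, and DKO replicate 3, with 169 reads, was the lowest library. DKO against Ctrl gave -0.62 on the log2 scale (95% interval -1.46 to 0.23, limma adjusted p = 0.680), and -0.15 without DKO replicate 3 (adjusted p = 0.969). Fcgr3 has close relatives, Fcgr2b and Fcgr4, between which reads can be split, and myeloid cells also express it, so its values are uncertain.

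The adaptor genes stayed abundant in every genotype. Fcer1g (ENSMUSG00000058715, chromosome 1, 171229572 to 171234365, minus strand), the partner of NKp46 and CD16, had 693, 752 and 801 FPKM in Id2KO, 626, 615 and 561 in Tcf1KO libraries and 727, 850 and 669 in DKO, against 755, 909 and 806 in Ctrl. The libraries labelled Tcf1KO were below all others, and the other groups overlapped. Tcf1KO against Ctrl gave -0.45 ± 0.13 on the log2 scale (limma adjusted p = 0.662). Divided by the summed NK markers of its library, Fcer1g stood at 2.08, 1.95 and 1.86 for libraries labelled Tcf1KO. Ctrl libraries stood at 1.98, 2.28 and 2.02 on that scale and overlapped Tcf1KO. DKO libraries stood at 2.99, 2.54 and 2.42, above Ctrl and Tcf1KO, and Id2KO libraries (1.83, 2.02 and 2.95) overlapped every group. In FPKM DKO overlapped Ctrl, so its separation from Ctrl on that scale comes from the lower NK marker sums of DKO.

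Tyrobp (ENSMUSG00000030579, chromosome 7, 30413760 to 30417585, plus strand), whose product DAP12 pairs with Ly49D and Ly49H, had 918, 1306 and 802 FPKM in Id2KO, 883, 663 and 732 in Tcf1KO libraries and 778, 864 and 546 in DKO, against 1041, 1409 and 1352 in Ctrl. Both Tcf7-targeted groups lay wholly below Ctrl, and Id2KO overlapped every group. Tcf1KO against Ctrl gave -0.74 ± 0.23 on the log2 scale (limma adjusted p = 0.712), DKO against Ctrl -0.81 ± 0.23 (adjusted p = 0.261), and the Tcf7-targeted groups against the others -0.60 ± 0.16 (adjusted p = 0.205). With the T cell marker score as a term these were -0.36, -0.44 and -0.29 (adjusted p = 0.919, 0.843 and 0.893). Divided by the summed NK markers of its library, Tyrobp stood at 2.94, 2.104 and 2.43 for libraries labelled Tcf1KO and 3.196, 2.58 and 1.98 for DKO libraries, against 2.73, 3.53 and 3.40 for Ctrl libraries, so that both groups overlapped Ctrl on that scale. Over the 12 libraries Tyrobp had the highest correlation with Ncr1 among the members (r = 0.81, in the same 4 groups). The T cell marker score correlated with Ncr1 at r = -0.92 and with Tyrobp at r = -0.80.

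Hcst (ENSMUSG00000064109, chromosome 7, 30417712 to 30419854, minus strand), whose product DAP10 pairs with NKG2D, had 78.9, 127 and 73.7 FPKM in Id2KO, 89.7, 74.8 and 94.96 in Tcf1KO libraries and 90.3, 110 and 95.4 in DKO, against 70.5, 59.2 and 102 in Ctrl. All groups overlapped Ctrl in FPKM. Divided by the summed NK markers of their library, DKO libraries (0.371, 0.331 and 0.346) lay above Ctrl libraries (0.185, 0.149 and 0.256), and the other groups overlapped Ctrl. The separation of DKO on that scale comes from its lower NK marker sums. DKO against Ctrl gave 0.38 on the log2 scale (95% interval -0.14 to 0.91, limma adjusted p = 0.677), and 0.21 without Ctrl replicate 2 (adjusted p = 0.899). Hcst and Tyrobp lie 126 bases apart on opposite strands; whether counting used strand is not given in the sources used here, but no other annotated gene overlaps either of them.

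Counted over the members, limma called 0 of 10 in Id2KO against Ctrl, where 0.178% of all genes were called, 0 in Tcf1KO against Ctrl (0%), 0 in DKO against Ctrl (0.145%) and 0 in DKO against Tcf1KO (0.0565%). At an unadjusted p under 0.05 these comparisons held 5, 5, 5 and 2 members, against 9.71%, 4.8%, 9.44% and 6.73% of all genes, and voom called 0, 1, 1 and 0, Ncr1 in both cases. Members without overlap between groups numbered 4 in Id2KO, 5 in Tcf1KO and 5 in DKO against Ctrl, and 2 in DKO against Tcf1KO, where 13.9%, 10.7%, 13.5% and 12.6% of all genes did not overlap. The first 3 comparisons share the Ctrl libraries.

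Over the averaged groups, limma called 2 of 10 for Tcf7 targeting (Cd226 higher and Ncr1 lower), where 0.371% of all genes were called, and 1, Cd226, did not overlap (0.88% of all genes). It called 0 for Id2 targeting (0.299% of all genes), with 4 at an unadjusted p under 0.05 (10.9%) and 0 by voom. It called 0 for Cre (0.0565%), with 4 at an unadjusted p under 0.05 (6.82%) and 1, Ncr1, by voom, and Ncr1 alone did not overlap (1.34% of all genes). The interaction had 0 calls (0%), with 4 at an unadjusted p under 0.05 (5.94%) and 0 by voom. The median difference of the 10 for Tcf7 targeting was -0.26 on the log2 scale, with 4 positive, against a median of -0.01 over all genes. At an unadjusted p under 0.05 this comparison held 6 members (9.74% of all genes).

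Around the members, 74 further genes of the same signalling system were listed in 6 groups; 71 had a row in the table and 60 were tested. Ly49 receptors that pair with DAP12 were the ones called. Klra4 (Ly49D) had 48.1, 57.7 and 28.7 FPKM in Id2KO, 25.0, 23.0 and 14.6 in Tcf1KO libraries and 22.2, 21.5 and 13.6 in DKO, against 72.8, 70.5 and 67.6 in Ctrl. It was lower in every Cre-carrying library than in any Ctrl library, and fell by 1.45 ± 0.20 with Tcf7 targeting on the log2 scale (limma adjusted p = 0.0208) and by 1.86 ± 0.28 in DKO against Ctrl (adjusted p = 0.0416). Klra8 (Ly49H) fell by 1.40 ± 0.24 with Tcf7 targeting (adjusted p = 0.0439), with overlap between the groups. With the T cell marker score as a term these 3 values were -0.81, -1.09 and -1.15 and none was called (adjusted p = 0.743, 0.677 and 0.735). Over all alternatives tried, the call was lost in 7 of 22 for Klra4 with Tcf7 targeting, in 14 of 23 for Klra4 in DKO against Ctrl and in 15 of 22 for Klra8. Near-identical Ly49 copies make both uncertain.

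Of the 60 tested genes 0 were called higher in any of the 9 comparisons. Called lower were 1 in DKO against Ctrl, where 0.145% of all genes were called, and 2 with Tcf7 targeting (0.371%). For Tcf7 targeting the 23 ITAM and DAP signalling genes had a median difference of -0.02 on the log2 scale with 11 positive, the 6 tested SLAM genes -0.07 with 2 positive, and the 11 tested phosphatase and checkpoint genes 0.04 with 7 positive, beside -0.01 over all genes. Genes closest to a call without reaching it included Plcg1, phospholipase Cγ1, with 1.74, 1.63 and 3.29 FPKM in DKO against 0.198, 0.190 and 0.417 in Id2KO (log2 difference 1.31 ± 0.25, adjusted p = 0.110), a gene that T cells also express. Sh2d1a, the SLAM adaptor SAP, had 8.89, 14.9 and 6.17 FPKM in DKO against 21.3, 23.7 and 16.3 in Id2KO (-1.03 ± 0.27, adjusted p = 0.191). Lat2, a linker of myeloid and NK cells, differed by -0.59 ± 0.16 in Tcf1KO against Ctrl (adjusted p = 0.560), Lair1, an inhibitory collagen receptor, by -0.81 ± 0.25 in Id2KO against Ctrl (adjusted p = 0.298), and Lag3, an inhibitory receptor, by 0.87 ± 0.33 in DKO against Id2KO (adjusted p = 0.373). The costimulatory receptors Cd160 and Tnfrsf9 differed by 0.68 in Tcf1KO against Ctrl (adjusted p = 0.741) and 0.71 in DKO against Ctrl (adjusted p = 0.352). Slamf9, a SLAM receptor, differed by 0.84 in Tcf1KO against Ctrl (adjusted p = 0.999), at very low levels. It had 0.54, 1.84 and 0.57 FPKM (10, 45 and 15 reads) in Tcf1KO, against 0.14, 0.05 and 0 in Ctrl. Crtam, a nectin-like receptor, differed by -0.30 in DKO against Id2KO (adjusted p = 0.614).

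**Figure D4:**
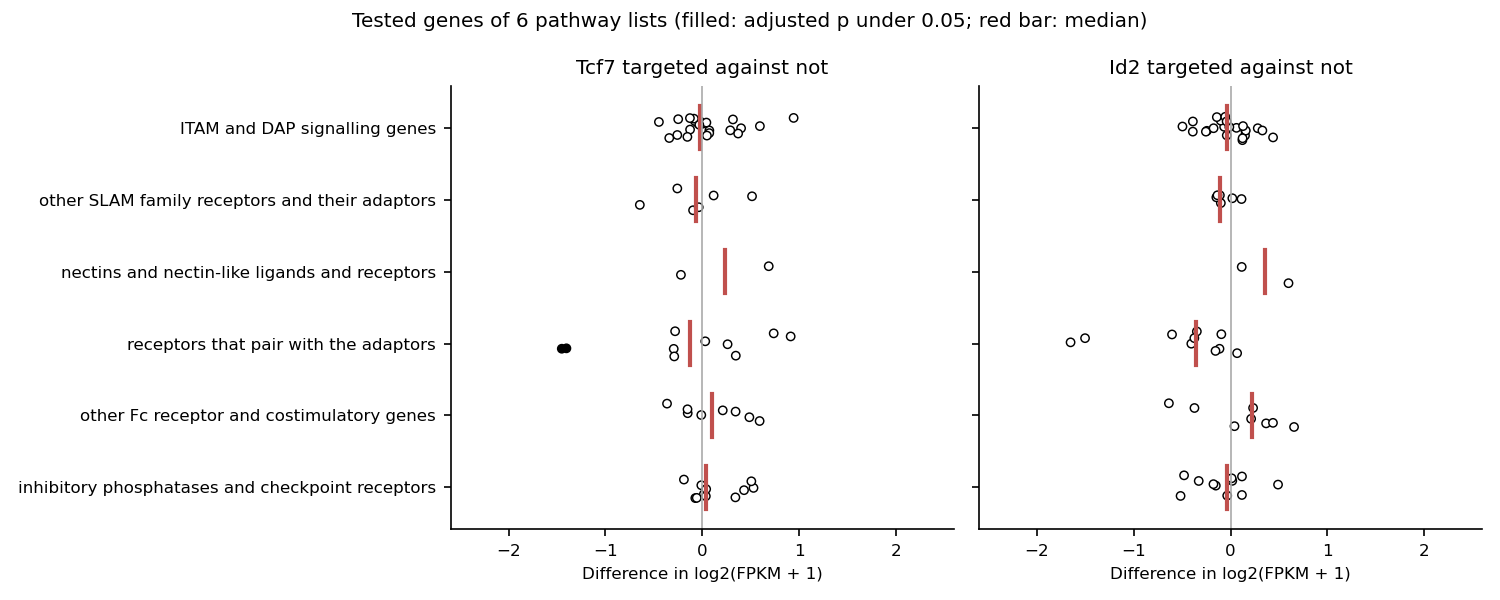
Differences in log2(FPKM + 1) (x axis) of the 60 tested pathway genes, by list (rows), for the Tcf7-targeted groups against the others and the Id2-targeted groups against the others (panels); each point is 1 gene, filled where adjusted p was under 0.05, and the red bar is the list's median. The filled points are Klra4 and Klra8, near -1.45 and -1.40.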

How the data were processed

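Per the submitters' processing notes, reads were processed with Trimmomatic 0.33, TopHat2 2.1.0, HTSeq 0.6.1 and edgeR on mm10; the authors deposited FPKM values per gene and library, and these were used as they stand. Their steps gave whole reads for 100.0% of the 23707 genes above 0 (tolerance 0.001 to 0.05 reads), used for depth and for a voom alternative only. GENCODE M21 on GRCm38 annotated 32919 IDs, and the other 5072 kept theirs.

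Genes at 1 FPKM or more in at least 3 libraries (12384) were fitted on log2(FPKM + 1), with a pseudocount of 1, which understates changes of low genes. The fit used limma 3.58.1 in R 4.3.3 with 1 mean per group over all 12 libraries, a variance trend, two-sided moderated tests and Benjamini-Hochberg adjustment per contrast. There were 9 contrasts: 5 pairwise, the interaction, and averages of groups by Cre, Tcf7 targeting and Id2 targeting. The last 2 partly hold Cre, since Ctrl lacks it. Named were all 10 members, Id2 and Tcf7, called genes of the lists or else up to 2 per list, and for Ncr1 the 5 tested genes correlated most in each direction and those within 200 kb. The correlation ranking passed over Gm-number and Rik names and IDs without a name. Zap70, Syk and other background names carry no values. The members and gene lists were chosen with earlier results of these data known. With 3 libraries a group, no outlier test of single libraries was made. The procedure was tested on simulated data. Alternatives were pseudocount, filters, scaling, weights, replicate block, fits of single pairs, voom, marker scores and leaving out libraries. Tables and figures used matplotlib 3.10.9, numpy 2.4.6 and pandas 2.3.3 under Python 3.11.15.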

Additional observations from a re-analysis of the deposited data

How the results depend on the processing

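Over 23 alternative settings, 702 of 749 recomputed values of the 33 named member differences kept their direction and their side of the threshold; 24 lost a call, 20 gained one and 3, none of them called, changed sign. Those 3 were Cd226 in DKO against Tcf1KO (-0.191 to 0.075 over leaving out single libraries, positive without Tcf1KO replicate 3), Tigit in Tcf1KO against Ctrl (0.074 with the T cell marker score) and Fcgr3 in DKO against Ctrl (0.067 without the 3 libraries of lowest array weight, Id2KO 3, DKO 3 and Ctrl 2). The cause was not tested.

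The number of members called in Tcf1KO against Ctrl was 1 (Ncr1) with array weights or voom, and was 0 to 1 over leaving out single libraries. In DKO against Ctrl it was 1 (Ncr1) with the filter at FPKM 5, median scaling, voom or the other-lineage score, and 0 to 1 over single libraries left out. In DKO against Id2KO it was 0 when only the compared groups were fitted, with either marker score and without the 3 low-weight libraries, and 0 to 1 over single libraries left out. For Cre groups against Ctrl it was 1 (Ncr1) with the filter at FPKM 5, median scaling, array weights, voom or the other-lineage score, and 0 to 1 over single libraries left out. For Tcf7 targeting it was 1 (Cd226) with no filter, 0 with the T cell score, and 0 to 2 over single libraries left out. For Id2 targeting it was 1 (Tigit) with median scaling, array weights or the replicate block, and 0 to 1 over single libraries left out. Counts over all genes moved more: 22 genes in Id2KO against Ctrl ranged from 2 to 33, 18 in DKO against Ctrl from 0 to 27, 15 in DKO against Id2KO from 0 to 31, 7 in DKO against Tcf1KO from 0 to 15, 46 for Tcf7 targeting from 0 to 89, 37 for Id2 targeting from 6 to 85, 7 for Cre from 0 to 23, and 0 in Tcf1KO against Ctrl from 0 to 7.

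The replicate block gave 1 call, Tigit, for Id2 targeting (0.87 on the log2 scale, adjusted p = 0.0311) and changed no other member's call. Same-numbered libraries did not deviate together throughout (residual correlations of -0.14 to 0.27 over 18 pairs), so the numbers were not taken as pairs. The T cell marker score and the low-weight exclusion were chosen after seeing the data. With the T cell score 0 of all genes were called for Tcf7 targeting, for Cre, in DKO against Ctrl and in DKO against Id2KO. Groups of 3 and high T cell, myeloid and erythroid RNA in some libraries limit what small differences can show.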
